A study of Sus scrofa with 8 samples.

Results

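The calpain system was examined in back muscle (longissimus dorsi) of Korean native pigs and Yorkshire pigs. Calpains 1, 2 and 3 and the inhibitor calpastatin are encoded by CAPN1, CAPN2, CAPN3 and CAST. A probe set is a group of oligonucleotides on an Affymetrix array that reports 1 or more transcripts. It was taken as a member where the platform annotation gave exactly 1 gene symbol, equal to CAPN1, CAPN2, CAPN3 or CAST. This gave 9 of the 24123 probe sets on the array, with 1 for CAPN1, 1 for CAPN2, 2 for CAPN3 and 5 for CAST. The groups were 4 Korean native pigs (KNP) aged 7 months and 4 Yorkshire pigs aged 6 months, all raised under the same conditions and sampled between the seventh and ninth ribs. Breed and age therefore cannot be told apart. The stated aim was to discover genes whose expression in skeletal muscle differs by breed.

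Calpains are cysteine proteases of the cytosol that are switched on by calcium. CAPN1 (mu-calpain) and CAPN2 (m-calpain) are found in nearly all tissues, differ in how much calcium they need in the test tube, and each pairs with the small regulatory subunit CAPNS1. CAPN3 is the calpain of skeletal muscle, is anchored on the giant sarcomere protein titin, and its loss causes a limb-girdle muscular dystrophy in humans. CAST inhibits CAPN1 and CAPN2 but not CAPN3, and its gene makes several isoforms by alternative promoters and splicing. In meat, proteolysis by CAPN1 after slaughter is the main route of tenderisation, and a high level of calpastatin slows it.

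The tissue carried the markers of skeletal muscle. Of 14 listed muscle fibre markers 10 were tested, among them CKM, MYL1 and TNNC2, with summed signals of 475285 to 706647 in KNP and 609313 to 959724 in Yorkshire. Median signal per array ranged from 135.8 to 185.3. Control transcripts set arrays apart in 2 ways that were balanced over the breeds. KNP 1 and Yorkshire 3 had a high ratio of 3′ to 5′ control signal, at 3.33 and 3.03 log2 units, against 0.87 to 1.73 on the other 6 arrays. This ratio is commonly read as a measure of RNA integrity and labelling. Hybridisation controls were bright on replicates 1 and 3 of each breed, at 13.42 to 13.70 log2 units, and dim on replicates 2 and 4, at 12.50 to 12.81. The part of either measure in the results below was not tested beyond the values given.

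No member passed the threshold of an adjusted p of 0.05 between breeds, and none of the 14399 probe sets tested did (limma, called share 0.0%). Of the 9 member probe sets, 8 passed the filter on dim probe sets, and 5 of these had a higher and 3 a lower mean in KNP, with a median log2 change of 0.21 against 0.00472 over all probe sets tested. At an unadjusted p under 0.05 there were 2 of the 8, 1 higher and 1 lower in KNP, set against 3.96% of all probe sets (2.01% higher and 1.95% lower). The arrays of the breeds did not overlap for the same 2, a probe set of CAPN3 (KNP higher, as in 1.37% of all) and that of CAPN2 (KNP lower, as in 1.19%), set against 2.56% of all in either direction. With so few members these counts are given as a description. Changes are in log2(signal + 32), KNP minus Yorkshire, and every tested member had limma adjusted p = 0.999.

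**Figure D1:**
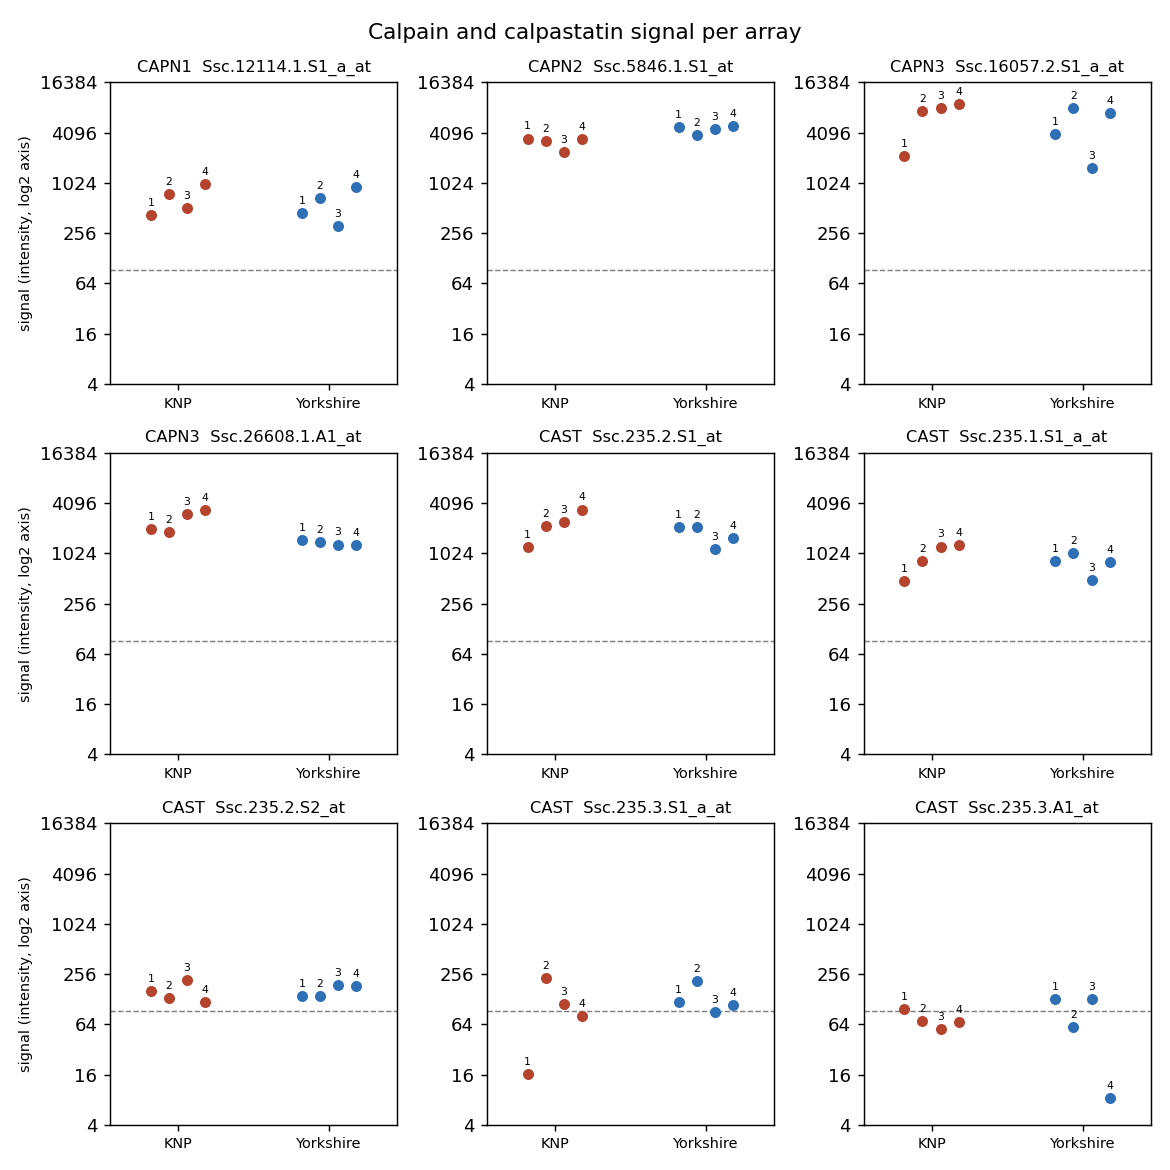
Signal of each member probe set on each array (log2 axis, numbers beside points are replicates), KNP in red and Yorkshire in blue. The dashed line is the 95th percentile of the negative controls, 91.5. CAPN2 and CAPN3 Ssc.26608.1.A1_at are the members whose breeds do not overlap.

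CAPN1, the calpain most closely tied to tenderisation, had overlapping signals in the breeds. Its probe set Ssc.12114.1.S1_a_at had signals of 418, 744, 511 and 982 in KNP 1 to 4, against 449, 668, 307 and 906 in Yorkshire 1 to 4. The lowest array was a Yorkshire and the highest a KNP, and the rest were mixed. The log2 change was 0.21 (SE 0.34, 95% interval -0.53 to 0.96; limma adjusted p = 0.999), so that the interval allows a KNP level from 0.691 to 1.94 times that of Yorkshire. Without Yorkshire 3 the change was -0.040. CAPN1 was ordered by the hybridisation controls: the 4 arrays of bright hybridisation controls, at 307 to 511, all lay below the 4 of dim controls, at 668 to 982. Of all probe sets tested 2.89% had this order and 3.85% the opposite one. The breed difference was 0.29 among replicates 1 and 3 (bright) and 0.13 among replicates 2 and 4 (dim).

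CAPN2, the ubiquitous m-calpain, had a lower signal on every KNP array than on any Yorkshire array. Its probe set Ssc.5846.1.S1_at had signals of 3479, 3253, 2404 and 3472.5 in KNP 1 to 4, against 4744, 3857, 4513 and 4912 in Yorkshire 1 to 4. The mean was 3152 ± 510.0 in KNP and 4507 ± 463.1 in Yorkshire (SD, n = 4). On the log2 scale KNP minus Yorkshire was -0.52 with an SE of 0.18, a 1.43-fold lower level. The 95% interval was -0.92 to -0.13, the unadjusted limma p was 0.0141 and the adjusted one 0.999. By the exact two-sided permutation test p was 0.0286, unadjusted, the smallest that the 70 labellings of the arrays allow. Any probe set without overlap between the breeds has this p. The change was -0.67 among the bright arrays, -0.37 among the dim arrays, and between -0.59 and -0.40 with any 1 array left out. CAPN2 was the steadiest member: its SD within breeds, 0.21 log2 units, was at the 9.59th percentile of all probe sets tested.

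In bulk muscle a lower CAPN2 signal from fewer cells of a type cannot be told apart from less RNA per cell. Of the marker lists of other cells in muscle, that of fibroblasts and connective tissue had a median change of -0.34, with 11 of 11 tested genes below 0, such as DCN, FBN1 and COL5A1, and none past the threshold. Their summed signals were 29480.3 to 53745 in KNP and 36544 to 69341 in Yorkshire, which overlap. For adipocytes 5 of 6 markers were below 0 (median -0.55). Muscle fibre markers were mostly lower too, with 9 of 10 below 0 and a median of -0.31. That median was -0.41 to -0.19 with 1 array left out. Under the other alternatives it ran from -0.60 to 0.00192, the latter after quantile normalisation. Of all tested genes 50.4% were lower in KNP. The other medians changed sign with 1 array left out. That of smooth muscle markers was -0.32 (3 of 5 below 0; -0.38 to 0.039 with 1 array left out) and that of endothelial markers 0.02 (3 of 7; -0.16 to 0.15). Leukocyte markers had a median of 0.11 (0 of 3; -0.40 to 0.37) and red cell markers 0.07 (1 of 3; -0.092 to 0.14). The part of these cells in the CAPN2 difference was not tested.

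CAPN3, the muscle calpain, was reported by 2 probe sets, and the breeds overlapped in 1 of them. The one without overlap, Ssc.26608.1.A1_at, had signals of 2011, 1849.6, 3036 and 3407 in KNP 1 to 4, against 1495, 1395, 1307 and 1295 in Yorkshire 1 to 4. All 4 KNP arrays lay above all 4 Yorkshire arrays, and KNP arrays were more widely spread, with an SD of 763.7 around a mean of 2576, against an SD of 92.9 around 1373 in Yorkshire (n = 4 each). On the log2 scale KNP minus Yorkshire was 0.85 with an SE of 0.22, a 1.80-fold higher level. The 95% interval was 0.37 to 1.33, the unadjusted limma p was 0.00230 and the adjusted one 0.999. The exact two-sided permutation test again gave the smallest possible p, 0.0286, unadjusted. The change was 0.81 among the bright arrays, 0.89 among the dim arrays, and between 0.70 and 0.99 with any 1 array left out.

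The other CAPN3 probe set, Ssc.16057.2.S1_a_at, did not separate the breeds. Its signals were 2129, 7439, 8118 and 8906 in KNP 1 to 4, against 3929, 8036, 1549.6 and 7103 in Yorkshire 1 to 4. The low arrays were KNP 1 and Yorkshire 3, the arrays of high 3′ to 5′ ratio, and their signals of 2129 and 1549.6 lay below the 3929 to 8906 of the other 6. The log2 change was 0.43 (SE 0.53, 95% interval -0.74 to 1.59; limma adjusted p = 0.999), or 0.42 (SE 0.27; limma adjusted p = 0.984) without those arrays. Leaving out Yorkshire 3 alone gave -0.061. Among the bright arrays it was 0.75 and among the dim arrays 0.11. The SD within breeds, 1.02 log2 units, was at the 97.4th percentile of all probe sets tested, against the 31.1st for Ssc.26608.1.A1_at.

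Set against each other on the same array, the CAPN3 probe sets gave a log2 ratio of Ssc.26608.1.A1_at over Ssc.16057.2.S1_a_at of -1.21 ± 0.81 in KNP and -1.64 ± 1.06 in Yorkshire (SD, n = 4). The ratio was -0.08 on KNP 1 and -0.24 on Yorkshire 3, against -2.50 to -1.37 on the other arrays. The breeds overlapped, at a difference of 0.42, and whether the 2 probe sets differ in their breed change was not tested. Which CAPN3 transcripts each probe set reports was not analysed here.

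**Figure D2:**
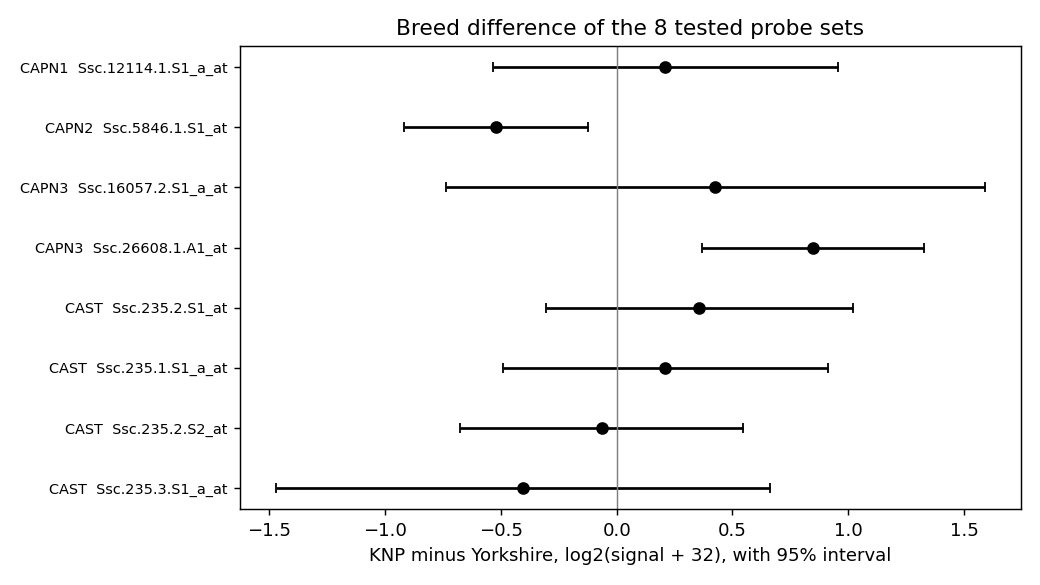
Log2 change of the 8 tested probe sets, KNP minus Yorkshire (points), with the 95% confidence interval of the limma fit (bars). The intervals of CAPN2 and CAPN3 Ssc.26608.1.A1_at leave out 0 before adjustment over all probe sets, and none passed after it.

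CAST, the inhibitor, was measured by a pair of well detected probe sets and by 3 dim ones. Ssc.235.2.S1_at, which served as the denominator of the ratios, had signals of 1215, 2173, 2434 and 3432 in KNP 1 to 4, against 2099, 2141, 1157 and 1551 in Yorkshire 1 to 4. The breeds overlapped, although the 2 highest arrays were KNP 4 and KNP 3. The log2 change was 0.36 (SE 0.30, 95% interval -0.31 to 1.02; limma adjusted p = 0.999), so that the interval allows a KNP level from 0.809 to 2.03 times that of Yorkshire. It was 0.14 among the bright arrays, 0.58 among the dim arrays, and between 0.14 and 0.63 with any 1 array left out.

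The second well detected CAST probe set, Ssc.235.1.S1_a_at, also overlapped between breeds. Its signals were 475, 832, 1236 and 1303 in KNP 1 to 4, against 838, 1032, 495 and 817 in Yorkshire 1 to 4. The log2 change was 0.21 (SE 0.32; limma adjusted p = 0.999), with 0.24 among the bright and 0.18 among the dim arrays. With 1 array left out it lay between 0.00823 (without Yorkshire 3) and 0.50 (without KNP 1). The log2 ratio of this probe set to Ssc.235.2.S1_at stayed between -1.38 and -0.90 on the 8 arrays. As for CAPN3 Ssc.16057.2.S1_a_at, the lowest arrays of both CAST probe sets were KNP 1 and Yorkshire 3. Without them the changes were 0.45 and 0.30.

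The remaining CAST probe sets were dim. Ssc.235.2.S2_at had signals of 119 to 219 in KNP and 139.6 to 188 in Yorkshire and a log2 change of -0.06 (SE 0.28), which was 0.035 without KNP 4 and 0.17 among the bright arrays. Ssc.235.3.S1_a_at had 16.1 to 231 in KNP and 89.5 to 213 in Yorkshire, with 3 of 8 arrays at or below 91.5, the 95th percentile of the negative controls. Its log2 change was -0.41 (SE 0.49), or 0.033 without KNP 1. Ssc.235.3.A1_at did not pass the filter and was not tested, at 56.5 to 98.0 in KNP and 8.31 to 127 in Yorkshire, with 5 of 8 arrays at or below 91.5. The isoforms these probe sets report were not analysed here.

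Of the 8 tested probe sets, 4 were lower on KNP 1 and Yorkshire 3 than on any of the other 6 arrays. These were CAPN1, CAPN3 Ssc.16057.2.S1_a_at and both well detected CAST probe sets. Of all probe sets tested, 7.23% had that order and 7.63% the opposite one. The 2 members whose breeds did not overlap, CAPN2 and CAPN3 Ssc.26608.1.A1_at, did not follow it: CAPN2 was at 3479 and 4513 on KNP 1 and Yorkshire 3, inside the 2404 to 4912 of the other arrays. The 3′ to 5′ ratio averaged 1.70 ± 1.11 in KNP and 1.70 ± 0.95 in Yorkshire (SD, n = 4), with p = 1 by the two-sided exact permutation test.

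**Figure D3:**
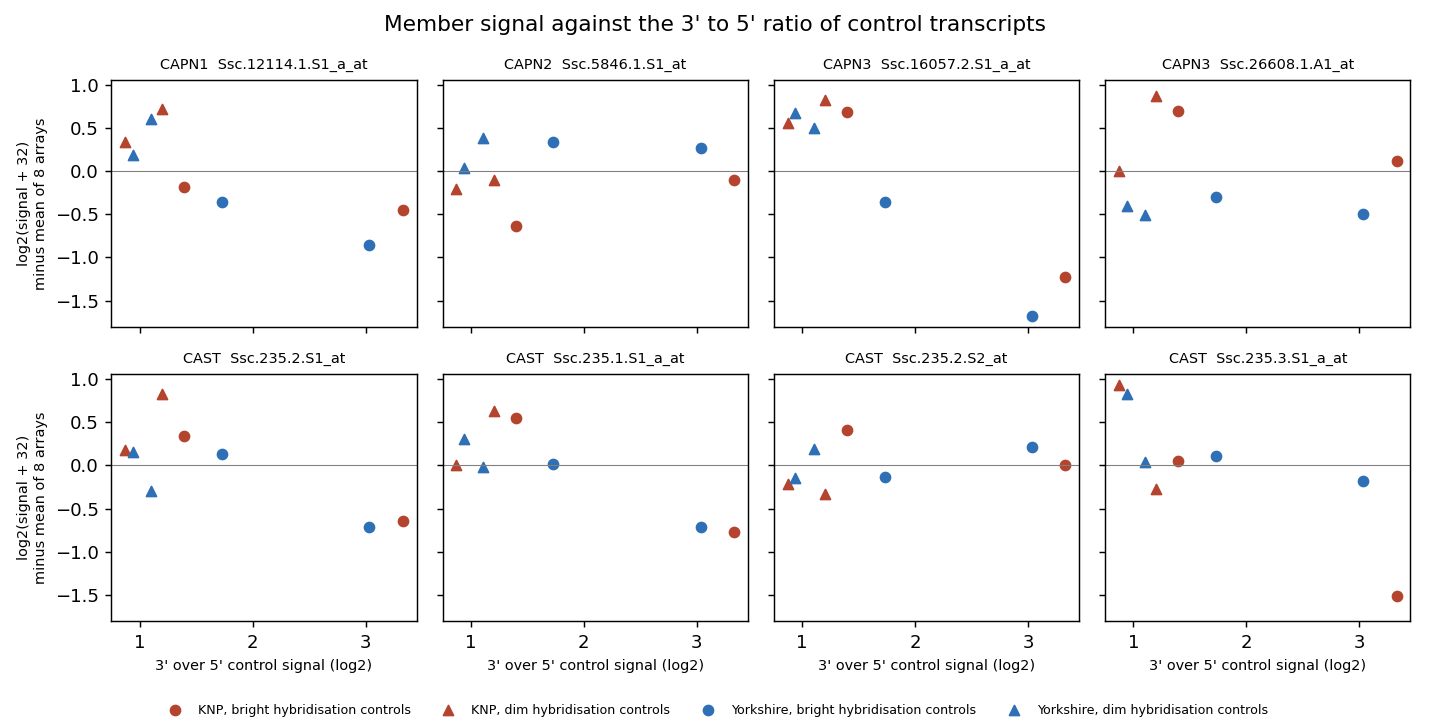
Log2(signal + 32) of each tested member minus its mean over the 8 arrays, against the log2 ratio of 3′ to 5′ signal of control transcripts on the same array (KNP red, Yorkshire blue, circles bright and triangles dim hybridisation controls). KNP 1 and Yorkshire 3, at 3.33 and 3.03, are the lowest points for CAPN1, CAPN3 Ssc.16057.2.S1_a_at and the CAST probe sets Ssc.235.2.S1_at and Ssc.235.1.S1_a_at.

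Correlations between members across the 8 arrays, which pool both breeds and share these array effects, are given as a description. The CAST probe sets Ssc.235.2.S1_at and Ssc.235.1.S1_a_at had r = 0.94, and r = 0.81 over the 6 arrays without KNP 1 and Yorkshire 3. CAPN3 Ssc.16057.2.S1_a_at had r = 0.82 with CAST Ssc.235.2.S1_at and 0.85 with CAPN1, or 0.37 and 0.64 over those 6 arrays. CAPN3 Ssc.26608.1.A1_at had r = 0.66 with CAST Ssc.235.2.S1_at, or 0.86 over the 6.

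The ratio of each calpain to calpastatin was taken on each array as the log2 signal of the calpain minus that of CAST Ssc.235.2.S1_at. Probe sets bind with different strength, so only the difference of a ratio between arrays can be read, not which transcript is the more abundant. No calpain ratio passed the threshold between breeds, and 0.0208% of all probe sets set against CAST did. At an unadjusted p under 0.05 there were 0 of 4, set against 2.58% of all, and 0 of 4 had breeds without overlap, set against 0.938%. Since CAST itself was 0.36 higher in KNP, the median breed difference of the ratio over all probe sets was -0.35, not 0.

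The CAPN2 to CAST ratio was lower in KNP on average. It was 1.49, 0.57, -0.02 and 0.02 in KNP 1 to 4, against 1.16, 0.84, 1.93 and 1.64 in Yorkshire 1 to 4. KNP 2, 3 and 4 lay below all Yorkshire arrays, while KNP 1 lay among them. The difference was -0.88 with an SE of 0.47 and a 95% interval of -1.81 to 0.05. The limma adjusted p was 0.913, with an exact two-sided permutation p of 0.114. It holds the difference of CAST as well as that of CAPN2. It ran from -1.20 without KNP 1 to -0.70 without Yorkshire 3. The median over all probe sets was -0.63 and -0.17 in the same fits. Without KNP 3 the difference was also -0.70, with a median over all probe sets of -0.30 and CAPN2 itself at -0.40. The parts of CAST and CAPN2 in this range were not tested. The ratio's difference was -0.73 over CAST Ssc.235.1.S1_a_at. Over the dim CAST probe sets Ssc.235.3.A1_at, Ssc.235.2.S2_at and Ssc.235.3.S1_a_at it was -0.61, -0.46 and -0.12. Over the mean of all CAST probe sets it was -0.56.

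The CAPN1 to CAST ratio, which pairs the protease of tenderisation with its inhibitor, was -1.73 ± 0.33 in KNP and -1.59 ± 0.59 in Yorkshire (SD, n = 4). Its difference was -0.15 (SE 0.48, 95% interval -1.08 to 0.79; limma adjusted p = 0.932), and it turned to 0.13 without Yorkshire 4 and to 0.00342 without KNP 3. It was 0.15 among the bright arrays, -0.45 among the dim arrays and 0.00026 to 0.62 over the other CAST probe sets. For CAPN3, which calpastatin does not inhibit, the ratio is only a comparison of levels. With Ssc.26608.1.A1_at it was 0.20 ± 0.41 in KNP and -0.29 ± 0.34 in Yorkshire (SD, n = 4), a difference of 0.49 (SE 0.47; limma adjusted p = 0.913), and 0.64 to 1.25 over the other CAST probe sets. With Ssc.16057.2.S1_a_at the difference was 0.07 (SE 0.48; limma adjusted p = 0.967), which was below 0 without KNP 2, KNP 3, Yorkshire 1 or Yorkshire 3, at -0.047, -0.036, -0.080 and -0.24. It was 0.61 among the bright arrays, -0.47 among the dim arrays and 0.22 to 0.83 over the other CAST probe sets.

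**Figure D4:**
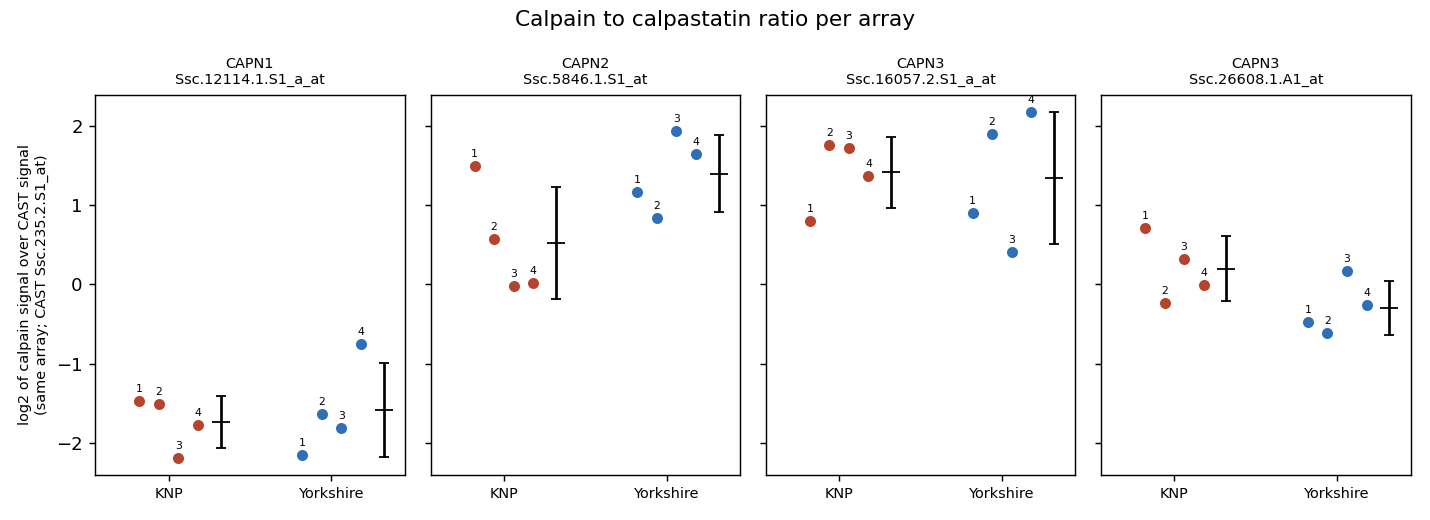
Log2 ratio of each calpain probe set to CAST Ssc.235.2.S1_at on the same array, KNP in red and Yorkshire in blue (numbers are replicates, black marks the mean ± SD of 4 arrays). Breeds overlap in all 4 panels, and KNP 1 is the KNP array that lies among the Yorkshire arrays for CAPN2.

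A ratio to CAPN2 was added after the values had been seen. CAPN3 Ssc.26608.1.A1_at over CAPN2 was -0.78, -0.80, 0.33 and -0.03 in KNP 1 to 4, against -1.64, -1.45, -1.76 and -1.90 in Yorkshire 1 to 4. All KNP arrays lay above all Yorkshire arrays, which was certain beforehand, since the first probe set was higher and CAPN2 lower on every KNP array. This ratio restates those levels and adds no support to them. Of all probe sets set against CAPN2, 17.5% did not overlap and 28.8% had an unadjusted p under 0.05, while 0.0% passed the threshold. The difference was 1.37 (SE 0.28; limma adjusted p = 0.127), against a median of 0.53 over all probe sets. Without KNP 1 and Yorkshire 3 together it was 1.497 (limma adjusted p = 0.0448). In that fit 38 of 14398 probe sets passed the threshold, and the median over all of them was 0.58. For CAPN1 and for CAPN3 Ssc.16057.2.S1_a_at the ratio to CAPN2 differed by 0.73 (SE 0.35) and 0.95 (SE 0.52), with limma adjusted p = 0.175 and 0.216 and overlapping breeds.

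Few other genes of the calpain family had a probe set annotated with exactly 1 gene symbol. CAPNS1, the small subunit that CAPN1 and CAPN2 share, had log2 changes of -0.22 (SE 0.28) and -0.32 (SE 0.37) in its 2 probe sets. CAPN10, a calpain studied as a diabetes candidate gene in humans, averaged 247 ± 87.2 in KNP and 116.9 ± 75.1 in Yorkshire (SD, n = 4), a log2 change of 0.96 (SE 0.39), and 2 Yorkshire arrays were below the negative control level of 91.5. CAPN7 was at 0.19 (SE 0.20). All had limma adjusted p = 0.999 and overlapping breeds. Of 14 listed symbols of the family 3 were tested and 0 passed the limma threshold. Of these 1, CAPN10, had an unadjusted p under 0.05, as did 3.43% of all tested genes.

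Lists of genes that calpains act on or act with were set beside the members. Of 22 tested genes for reported calpain substrates in muscle 0 passed the limma threshold and 0 had an unadjusted p under 0.05, while 18 were lower and 4 higher in KNP, with a median of -0.21, against 50.4% lower and a median of -0.00255 over 5331 genes. The 2 of smallest p were VCL, the vinculin of the costamere, at -0.31 (SE 0.20), and the tropomyosin TPM2 at -0.28 (SE 0.19). Titin, the anchor of CAPN3, was at -0.25 (SE 0.20). The list median was -0.018 among the bright arrays. The muscle fibre markers, of which DES, RYR1, TNNI2 and TNNT3 are also in this list, had 9 of 10 below 0. Their median was -0.31, or -0.00721 among the bright arrays and 0.00192 after quantile normalisation. It was -0.41 to -0.19 with 1 array left out, and -0.60 at the lowest of the other alternatives. The part of the fibre markers was not tested.

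Of 6 tested genes for partners of CAPN3 at titin and in membrane repair, 5 were below 0, with a median of -0.40, 0 past the limma threshold and 1, ANXA2, at an unadjusted p under 0.05, set against 3.43% of all tested genes. ANXA2, an annexin of membrane repair, was at -0.68 (SE 0.26) and ANXA1 at -0.56 (SE 0.36). With all probe sets of a gene averaged the list median was -0.10. The list of cathepsins, the other protease system considered in meat ageing, also held cystatins, their inhibitors, and the lysosomal membrane genes LAMP1 and LAMP2. It had 7 of 12 genes above 0 and a median of 0.03 (-0.10 to 0.15 with 1 array left out). Of the 12 genes 0 passed the limma threshold and 0 had an unadjusted p under 0.05. Of these CTSK was at -0.35 (SE 0.22) and CTSH at -0.54 (SE 0.45). All named genes of these lists had limma adjusted p = 0.999.

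The genes most like each member across the 8 arrays were chosen by the correlation of log2 signal, among the tested probe sets of other named genes, and describe these arrays only, with both breeds pooled. For CAPN1 they were DTNBP1, AKAP8L and EIF3L, at r = 0.96, 0.96 and 0.95. For CAPN2 they were C4H8orf33, RAB10 and DHDH, at r = 0.96, 0.94 and 0.94. For CAPN3 Ssc.16057.2.S1_a_at they were PSMF1, FHL3 and OGT, each at r = 0.98. Of the 7017 probe sets compared with it 104 exceeded 0.9 over the 8 arrays. Of similar numbers compared, 25 did for CAPN1, 7 for CAPN2 and 16 for CAST Ssc.235.2.S1_at. These counts were not taken without KNP 1 and Yorkshire 3. For CAST Ssc.235.2.S1_at they were ZCCHC11, EGFR and RBM39, at r = 0.98, 0.96 and 0.95. Over the 6 arrays without KNP 1 and Yorkshire 3, the values for CAPN3 were 0.84, 0.97 and 0.87.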

How the data were processed

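Total RNA from muscle was labelled with biotin and hybridised to 1 one-colour Affymetrix porcine array per biological replicate, per the labels' protocols. The authors deposited 1 intensity on a linear scale for each probe set and array. The submitters' processing notes list GCOS 1.3, and the sources used here do not give the summarisation method or scaling target. A trimmed mean, without a small equal share of the highest and of the lowest values, was 500.1 to 500.2 on each array. The deposited intensity had therefore been scaled per array, and changes are relative to the other probe sets. The table had 0 value columns beyond the 8 arrays.

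Gene symbols came from GEO's platform annotation, which can be old. The 4 member symbols matched the Sscrofa11.1 gene table by gene number. No positions or sequences are reported.

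Values were transformed to log2(signal + 32). The 124 control probe sets and the dimmest 40% of the rest were left out, near a signal of 98.6, which left 14399. The linear model of breed came from limma 3.58.1, run in R 4.3.3 (intensity trend, 8 arrays, no covariates), with Benjamini-Hochberg adjustment over all tested. The fold change understates dim probe sets. Ratios were fitted the same way after subtracting the log2 value of CAST, or of CAPN2, on the same array from every probe set. Their errors therefore share that gene's noise. Limma draws each variance toward those of other probe sets, so the SE of a ratio is not its own spread alone. For the CAST ratio, CAPN3 Ssc.26608.1.A1_at and Ssc.16057.2.S1_a_at had SDs within breeds of 0.38 and 0.67, but SEs of 0.47 and 0.48. The fit was tested on simulated data with independent noise for each probe set and array. These held no array effects like those of the control transcripts, so the part of such effects was not tested. A gene was represented by its brightest tested probe set.

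Every member is named. From each list the genes past the threshold were named, or the 2 of smallest p where none passed, and for likeness the 3 genes of highest correlation. TTN and the marker genes were named outside this rule, after their values were seen. Members, lists and tests were chosen with earlier results of these data known.

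The labels call arrays of a breed biological replicates 1 to 4 and do not say that numbers pair animals across breeds. The numbers were not taken as pairs. The number of arrays limits the precision. Alternatives covered the pseudocount, filter, normalisation, variance model, blocks, CAST probe set and arrays left out.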

Additional observations from a re-analysis of the deposited data

Results flagged for a closer look

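CAPN3 Ssc.16057.2.S1_a_at on KNP 1 lay far from the other arrays of its breed, at 11.08 log2 units against 12.87 to 13.13 on KNP 2 to 4, a gap of 0.874 of the range. KNP 1 was also an array of high 3′ to 5′ control ratio, and its part in the value was not tested. This was 1 of 48 groups of 4 arrays checked, and chance flags about 1 in 20.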

How the results depend on the processing

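The replicate number as a block called 1 probe set of all tested, none of them a member, where 0 were called without it, and it changed no member's direction or call. Deviations of same-numbered arrays correlated at -0.04, 0.31, 0.10 and 0.05 for replicates 1 to 4, not all over 0.1, so the numbers were not taken as pairs. KNP 2, 3 and 4 correlated better with the same-numbered Yorkshire array than with any other (highest 0.14, 0.04 and 0.03). KNP 1 did not, and reached 0.36 with a Yorkshire array of another number, above every same-numbered value. That Yorkshire array therefore correlated better with KNP 1 than with its own number. As a hint from the data, hybridisation controls of a number lay close together. No member's level passed by limma under any of the alternatives run. Any probe set whose breeds do not overlap, 2.56% of all tested, has p = 0.0286 by the unadjusted exact permutation test. CAPN2 (-0.52) and CAPN3 Ssc.26608.1.A1_at (0.85) were among these, so this p restates their lack of overlap. Both kept their direction under every alternative run, with adjusted p of 0.964 to 1.000 for CAPN2 and 0.785 to 1.000 for CAPN3. With 1 array left out CAPN1 ranged from -0.040 to 0.45, CAPN3 Ssc.16057.2.S1_a_at from -0.061 to 0.91, CAST Ssc.235.2.S2_at from -0.21 to 0.035 and CAST Ssc.235.3.S1_a_at from -0.78 to 0.033. CAST Ssc.235.2.S2_at was 0.024 with quantile normalisation and 0.17 among the bright arrays. The CAPN1 to CAST ratio ranged from -0.33 to 0.13 with 1 array left out, was 0.15 within the bright arrays, 0.17 against the mean of all CAST probe sets, and 0.00026, 0.28, 0.13 and 0.62 against Ssc.235.1.S1_a_at, Ssc.235.2.S2_at, Ssc.235.3.A1_at and Ssc.235.3.S1_a_at. The ratio of CAPN3 Ssc.16057.2.S1_a_at ranged from -0.24 to 0.35, was -0.035 without KNP 1 and Yorkshire 3 together and -0.47 within the dim arrays, and was 0.61 within the bright arrays and 0.22 to 0.83 against the other CAST denominators. Those of CAPN2 and CAPN3 Ssc.26608.1.A1_at kept their direction, at -0.73 to -0.12 and 0.64 to 1.25 against the other denominators. The cause was not tested. Among all probe sets the ratio to CAST gave 3 calls, 1 to 97 with 1 array left out (97 without KNP 1), 68 without KNP 1 and Yorkshire 3 together and 0 within the bright arrays. The ratio to CAPN2 gave 0, 12 without KNP 1, 38 without KNP 1 and Yorkshire 3 together and 11 with the replicate block. The substrate list's median was -0.018 within the bright arrays, and that of CAPN3 partners -0.10 with all probe sets of a gene averaged. The dim CAST probe sets limit what can be read of isoforms and of the ratios taken over them.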
